A study of Mus musculus with 6 samples.

Results

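Genes that mark the opposite ends of the liver lobule were examined in liver RNA of Swiss-Webster mice. The members were taken by symbol from a list drawn up with earlier results of these data known: the pericentral genes Glul, Oat, Cyp2e1, Slc1a2 and Tbx3 and the periportal genes Hal, Sds, Gls2, Cyp2f2 and Cdh1. Every probe set whose annotation carried one of these symbols was taken. Of the 10 genes, 8 had a named probe set, of 12394 genes named on the array: all 5 pericentral genes and 3 periportal ones; Sds and Gls2 were not analysed here. The 8 genes had 10 of the 22690 probe sets, and 9 of these 10 were bright enough to be tested, against 14755 of all probe sets.

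The mice ate a control diet, or the diet with fraction 1, extracted with hexane, or fraction 2, extracted with methanol, from the gum resin tree Boswellia serrata. Each fraction was given at 1% of the diet for 21 days. Each of the 3 groups had 2 arrays, named control replicates 1 and 2 and replicates a and b of each fraction. The labels do not state the sex or age of the mice, or whether an array held 1 mouse or a pool, so p-values measure the spread between arrays, which may be technical.

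Blood enters the liver lobule at the portal tracts and leaves through the central vein, and hepatocytes along that path do different work. Periportal cells are known for glucose output, urea synthesis and amino acid breakdown, and pericentral cells for glutamine synthesis and much of the oxidation of foreign compounds by cytochromes P450. Wnt signals from the cells lining the central vein, read by beta-catenin and its TCF and LEF partners, are known to maintain the pericentral programme. RNA of whole liver carries no position, and fewer cells of a zone cannot be told apart from less RNA per cell.

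The arrays had median signals of 139 to 167 array units, and their trimmed means were equal within 0.065%. The ratio of 3' to 5' signal for actin, which grows as RNA degrades, was 3.87 on control replicate 2 and 2.13 to 2.64 on the others. Control replicate 1 and fraction 2 replicate a shared 1 scan day (batch 2) and the remaining 4 arrays another (batch 1). Fraction 1 thus has a within-batch value in batch 1 alone, against control replicate 2. For fraction 2 against control each batch holds 1 array of either group, so the 2 batch values average to the estimate by construction. The arrays of batch 2 were also those of chip lot 2, so day and lot cannot be told apart there. Control replicate 2 and fraction 1 replicate a were of lot 1, and replicate b of each fraction of lot 3. The arrays of control correlated with each other at r = 0.941, below the 0.971 of control replicate 1 with fraction 2 replicate a. Hepatocyte markers were present throughout: the dimmest of 7 measured ones had 11570 array units on its lowest array.

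The members' start sites could be read for 6 genes from RefSeq (build GRCm38.p6). The letters CTTTGA and CTTTGT, the core recognised by TCF and LEF factors, were searched on both strands of the 300 bases from 250 before to 50 after the start. They occurred in 3 of the 6 windows, those of Cyp2e1, Slc1a2 and Hal, and in 31.2% of all 32851 windows; those of Glul, Oat and Cyp2f2 held neither. The 250 bases upstream of 4 members are shown because the values below set them apart: Slc1a2 (chr2:102706188-102706437, plus strand) and Oat (chr7:132576399-132576648, minus strand) had the highest fold changes, and Cyp2e1 (chr7:140763569-140763818, plus strand) and Cyp2f2 (chr7:27119705-27119954, plus strand) are P450 genes of opposite zones. Capitals mark the core on either strand, and each sequence runs 5′ to 3′ toward the start site.
Slc1a2: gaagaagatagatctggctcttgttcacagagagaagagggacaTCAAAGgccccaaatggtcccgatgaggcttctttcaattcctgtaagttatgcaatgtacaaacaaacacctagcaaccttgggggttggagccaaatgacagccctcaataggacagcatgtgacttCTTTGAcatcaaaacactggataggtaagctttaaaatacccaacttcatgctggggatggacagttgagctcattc
Oat: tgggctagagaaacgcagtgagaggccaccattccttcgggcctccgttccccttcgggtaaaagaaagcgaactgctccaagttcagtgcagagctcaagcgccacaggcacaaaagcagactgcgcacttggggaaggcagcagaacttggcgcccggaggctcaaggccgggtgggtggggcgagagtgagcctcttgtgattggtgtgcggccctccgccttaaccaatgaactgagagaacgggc
Cyp2e1: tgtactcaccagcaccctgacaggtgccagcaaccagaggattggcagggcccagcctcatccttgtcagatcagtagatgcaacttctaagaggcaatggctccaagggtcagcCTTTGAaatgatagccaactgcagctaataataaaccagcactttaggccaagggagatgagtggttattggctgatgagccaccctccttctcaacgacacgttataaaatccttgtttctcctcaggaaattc
Cyp2f2: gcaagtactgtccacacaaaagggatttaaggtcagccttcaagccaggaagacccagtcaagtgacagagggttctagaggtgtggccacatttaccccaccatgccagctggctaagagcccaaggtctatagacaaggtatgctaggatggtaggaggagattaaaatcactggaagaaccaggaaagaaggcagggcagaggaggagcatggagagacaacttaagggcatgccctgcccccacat
In Slc1a2 the core began at -206 on the opposite strand and at -77 on the gene's own strand, counted from the start site. In Cyp2e1 it began at -135, and in Hal at -199. A match of letters is a description and not a site.

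No member passed an adjusted p of 0.05 with limma in any comparison. After fraction 1, 0 of 9 probe sets passed, where 0.712% of all tested probe sets did, and 2 reached an unadjusted p under 0.05, where 12.4% of all did. After fraction 2, 0 of 9 passed (0.108% of all), and 3 reached an unadjusted p under 0.05 (6.95% of all). Between the fractions 0 of 9 passed (0.0136% of all), and 1 reached an unadjusted p under 0.05 (8.04% of all). The arrays of the groups compared did not overlap for 5 of 9 member probe sets in each comparison, where this held for 40.9%, 35.2% and 46.8% of all tested probe sets. The values that follow are therefore levels and estimated differences with their errors. A fold change is on the scale of log2 of signal plus 16, which understates that of dim genes.

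**Figure D1:**
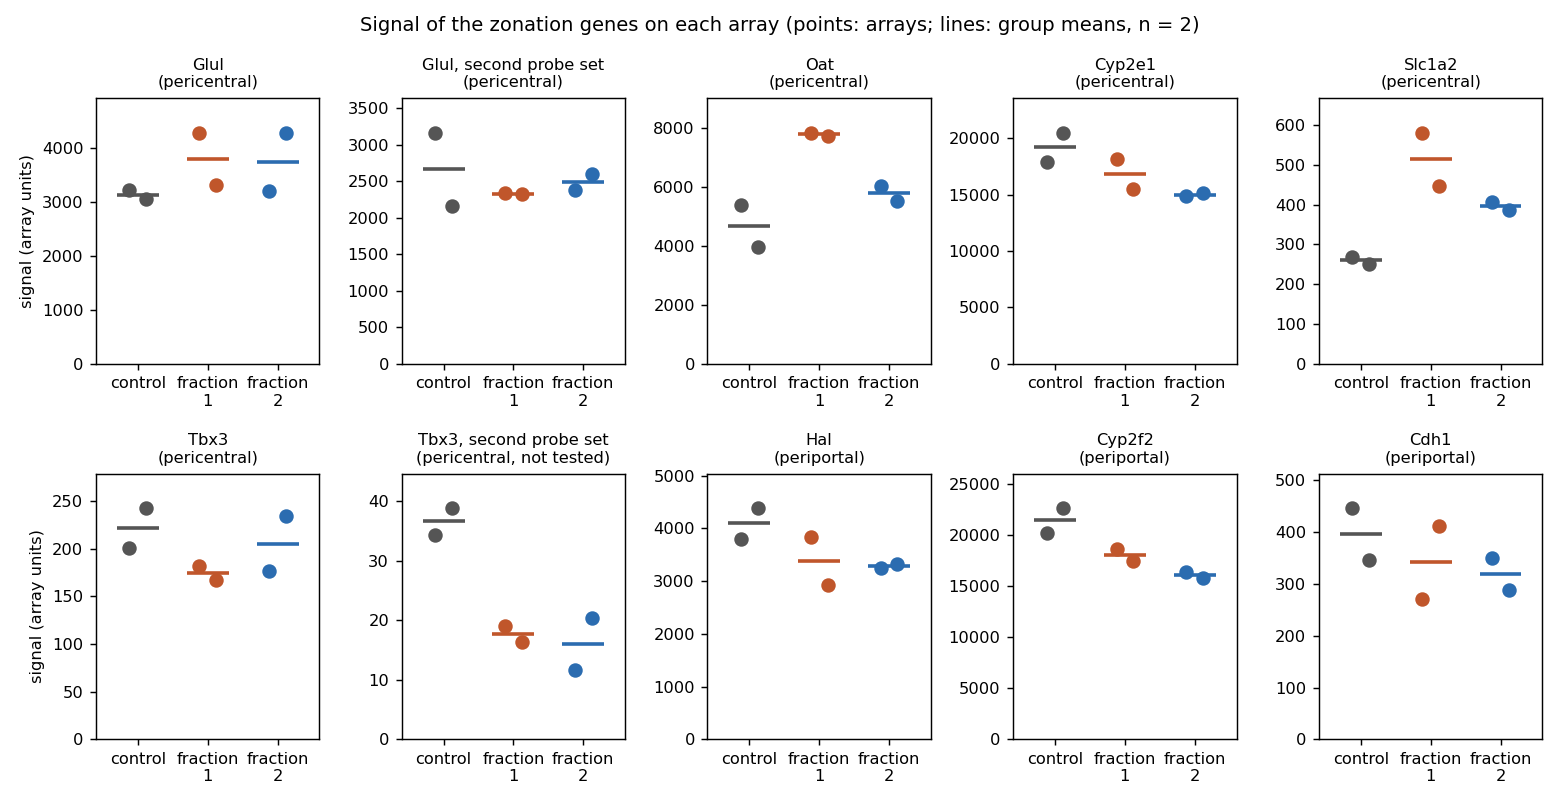
Signal in array units of the 10 member probe sets on each of the 6 arrays, each panel with its own linear axis from 0; points are arrays and lines are group means (n = 2). Slc1a2 lies between 250.1 and 269.6 in control and between 446.8 and 581.3 after fraction 1, whereas Cyp2f2 and Cyp2e1 have their highest arrays in control.

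Among the members, Slc1a2 and Oat had the highest estimates for fraction 1 against control. Slc1a2 is a glutamate transporter of the cell membrane that pericentral hepatocytes carry beside glutamine synthetase. Its signal was 269.6 and 250.1 in control, 581.3 and 446.8 after fraction 1, and 405.9 and 386.1 after fraction 2. The 3 groups did not overlap, in the order control, fraction 2, fraction 1. The estimate for fraction 1 against control was 0.93 ± 0.21 (log2 fold change ± SE; 95% interval 0.46 to 1.41), a 1.91-fold difference with an adjusted p of 0.104. It ranked 254th of 14755 by p. Both fraction 1 arrays lay above both controls, and within scan batch 1, against control replicate 2 alone, the estimate was 0.98. For fraction 2 against control it was 0.58 ± 0.21 (0.10 to 1.05, adjusted p = 0.648). The single arrays of batch 2 differed by 0.56, and those of batch 1, also 1 of each group, by 0.60. Between the fractions the estimate was 0.35 ± 0.21 (-0.12 to 0.83, adjusted p = 0.677).

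Oat, ornithine aminotransferase, passes nitrogen from ornithine toward glutamate. It read 5402.2 and 3955.3 in control, 7857.2 and 7729.7 after fraction 1, and 6055.8 and 5532.5 after fraction 2. The order of the groups was that of Slc1a2, again without overlap, but the 2 controls lay further apart than the arrays of either fraction. For fraction 1 against control the estimate was 0.75 ± 0.17 (0.36 to 1.14, adjusted p = 0.106). With scan batch as a block it was 0.90 and passed (adjusted p = 0.0457), and without control replicate 1 it was 0.98 and passed (adjusted p = 0.0309). Without control replicate 2, the array with the highest actin ratio, it was 0.53 (adjusted p = 0.151). Over the alternatives tried, the adjusted p ran from 0.0309 to 0.542. The part of RNA quality and of the scan batch in the Oat value was not tested beyond these fits. For fraction 2 against control Oat stood at 0.32 ± 0.17 (-0.06 to 0.71, adjusted p = 0.748), with 0.48 in batch 1 and 0.16 in batch 2. Between the fractions it stood at 0.43 ± 0.17 (0.04 to 0.81, adjusted p = 0.591), the only member with an unadjusted p under 0.05 in that comparison.

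**Figure D2:**
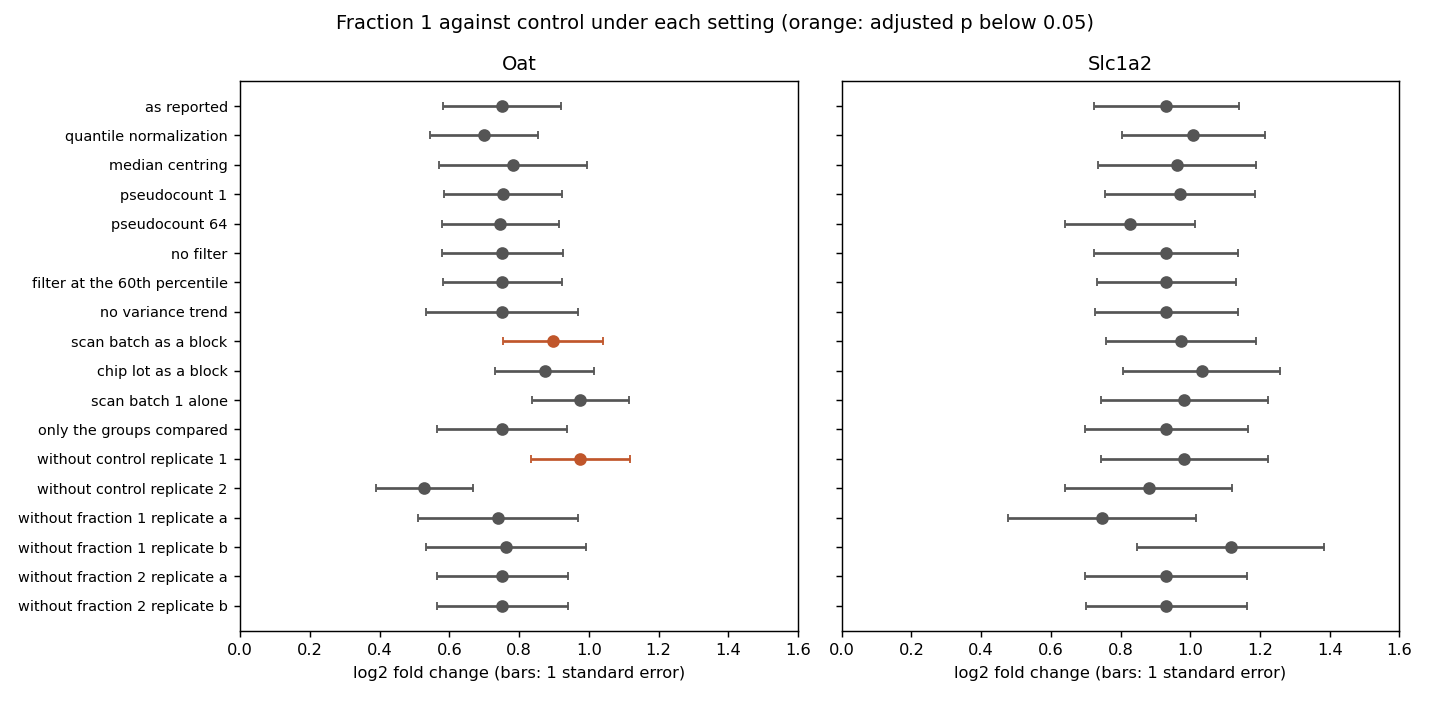
Log2 fold change of Oat and Slc1a2 for fraction 1 against control under each setting tried; points are estimates, bars are 1 standard error, and orange marks an adjusted p below 0.05. Oat runs from 0.53 to 0.98 and passes in 2 settings, and Slc1a2 runs from 0.75 to 1.12 and passes in none.

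Glul is glutamine synthetase, which joins ammonia to glutamate in the hepatocytes next to the central vein. It is the classical marker of that zone, and its 2 probe sets gave estimates of opposite sign against control. The brighter one read 3207.4 and 3054.7 in control, 4279.3 and 3314.2 after fraction 1, and 3200.2 and 4277.7 after fraction 2. Fraction 1 replicate a and fraction 2 replicate b stood well above control, fraction 1 replicate b slightly above it, and fraction 2 replicate a between the controls. The second probe set read 3162.9 and 2153 in control, 2333.3 and 2323.6 after fraction 1, and 2374.3 and 2595.3 after fraction 2. Here the fractions lay inside the range of the controls. The brighter probe set stood at 0.27 ± 0.19 for fraction 1 (-0.18 to 0.71, adjusted p = 0.646) and 0.24 ± 0.19 for fraction 2 (-0.20 to 0.69, adjusted p = 0.815). It stood at 0.082 without fraction 1 replicate a and at 0.032 without fraction 2 replicate b. The second stood at -0.16 ± 0.20 (adjusted p = 0.812) and -0.07 ± 0.20 (adjusted p = 0.948; 0.043 with each array centred on its median). Between the fractions they stood at 0.025 (-0.059 with median centring) and -0.09.

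The P450 genes Cyp2e1 and Cyp2f2 belong to opposite zones and had estimates of the same sign against control. Cyp2e1, a pericentral enzyme, oxidises ethanol and other small molecules. Cyp2f2 is a periportal enzyme of the same P450 family. Cyp2e1 read 17946.5 and 20513.3 in control, 18154.1 and 15541.9 after fraction 1, and 14899.6 and 15108.6 after fraction 2. Cyp2f2 read 20275.9 and 22656.8 in control, 18673.8 and 17487.1 after fraction 1, and 16460.9 and 15826.8 after fraction 2. Both fraction 2 arrays lay below both controls for each gene, and for Cyp2f2 both fraction 1 arrays did too. Cyp2f2 stood at -0.41 ± 0.11 after fraction 2 (-0.66 to -0.16, adjusted p = 0.495; -0.52 in batch 1, -0.30 in batch 2) and at -0.25 ± 0.11 after fraction 1 (-0.49 to 0.0013, adjusted p = 0.407). Cyp2e1 stood at -0.35 ± 0.12 after fraction 2 (-0.63 to -0.07, adjusted p = 0.633) and at -0.19 ± 0.12 after fraction 1 (-0.47 to 0.09, adjusted p = 0.586), the latter running from -0.30 to -0.08 with 1 array left out.

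Both P450 probe sets were among the brightest on the array, Cyp2f2 at rank 35 and Cyp2e1 at rank 47 by mean level. Of the 100 brightest tested probe sets, 97 lay below 0 after fraction 2, with a median of -0.30, and 79 after fraction 1, with a median of -0.13. These 100 were chosen after the values were seen. Over all tested probe sets, 44.64% lay above 0 after fraction 2 (median -0.041) and 47.19% after fraction 1 (median -0.023). After quantile normalization, which gives every array the same distribution, the fraction 2 estimates were -0.095 for Cyp2f2 and -0.089 for Cyp2e1, and the median of the 100 was -0.021. The part of this shift of bright probe sets in the P450 values was not tested beyond that normalization. The hepatocyte markers, also bright at 11570 array units or more on each array, lay on the same side. Of 7, 6 were below 0 after either fraction, with medians of -0.29 and -0.42, though 0 of 7 passed (3 and 6 at an unadjusted p under 0.05). Of all genes, 12.9% and 7.23% reached that p after fractions 1 and 2, and 46.3% and 43.1% lay above 0. Ttr stood at -0.30 and -0.47 after fractions 1 and 2. Its other probe sets stood at -0.17 and -0.097 after fraction 1 and at -0.24 and -0.14 after fraction 2. The part of the shift of bright probe sets in the hepatocyte markers was not tested. Between the fractions both P450 genes stood at 0.16 (adjusted p = 0.709 for Cyp2f2 and 0.741 for Cyp2e1), and after quantile normalization at -0.017 and -0.0075.

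Tbx3, a transcription factor and target of beta-catenin, was the regulator among the members. Its brighter probe set read 200.7 and 242.5 in control, 182 and 167.2 after fraction 1, and 176.4 and 234.3 after fraction 2. Both fraction 1 arrays were below both controls, while fraction 2 overlapped them. The estimates were -0.31 ± 0.24 for fraction 1 (-0.87 to 0.24, adjusted p = 0.669) and -0.11 ± 0.24 for fraction 2 (adjusted p = 0.932), the latter 0.0061 with median centring. Between the fractions it was -0.20 ± 0.24 (adjusted p = 0.825). A second probe set was below the filter and not tested; it had signals of 34.4 and 38.8 in control, 19 and 16.4 after fraction 1, and 11.6 and 20.4 after fraction 2.

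The remaining periportal members were Hal and Cdh1. Hal, histidine ammonia-lyase, takes the first step of histidine breakdown. It read 3807.5 and 4382.1 in control, 3842 and 2918.9 after fraction 1, and 3253.3 and 3335.3 after fraction 2. Fraction 2 lay below both controls, and fraction 1 replicate a lay between them. The estimates were -0.29 ± 0.18 (-0.69 to 0.12, adjusted p = 0.568) and -0.31 ± 0.18 (-0.71 to 0.09, adjusted p = 0.772). For fraction 1 the estimate was -0.48 without fraction 1 replicate a, -0.09 without replicate b and -0.18 without control replicate 2. Between the fractions Hal stood at 0.024, and at -0.061 with median centring.

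Cdh1 is E-cadherin, the adhesion protein of epithelial cells, which bile duct cells also make. Its signal was 446.1 and 346.1 in control, 271.1 and 412 after fraction 1, and 349.9 and 288.5 after fraction 2. Each fraction overlapped control, and without fraction 1 replicate a the fraction 1 estimate was 0.065. Cdh1 stood at -0.22 ± 0.26 for fraction 1 (-0.81 to 0.36, adjusted p = 0.796), -0.29 ± 0.26 for fraction 2 (-0.88 to 0.29, adjusted p = 0.821) and 0.071 between the fractions (-0.014 with median centring). Of 8 bile duct markers with a probe set 2 were tested, Krt19 and Cldn4, and neither passed in any comparison. The summed signal of the 8 ran from 383.1 to 487.9 in control, 347.7 to 485.4 after fraction 1 and 311.2 to 342.7 after fraction 2, with a lowest single value of 3.4; its part in the Cdh1 level was not tested.

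**Figure D3:**
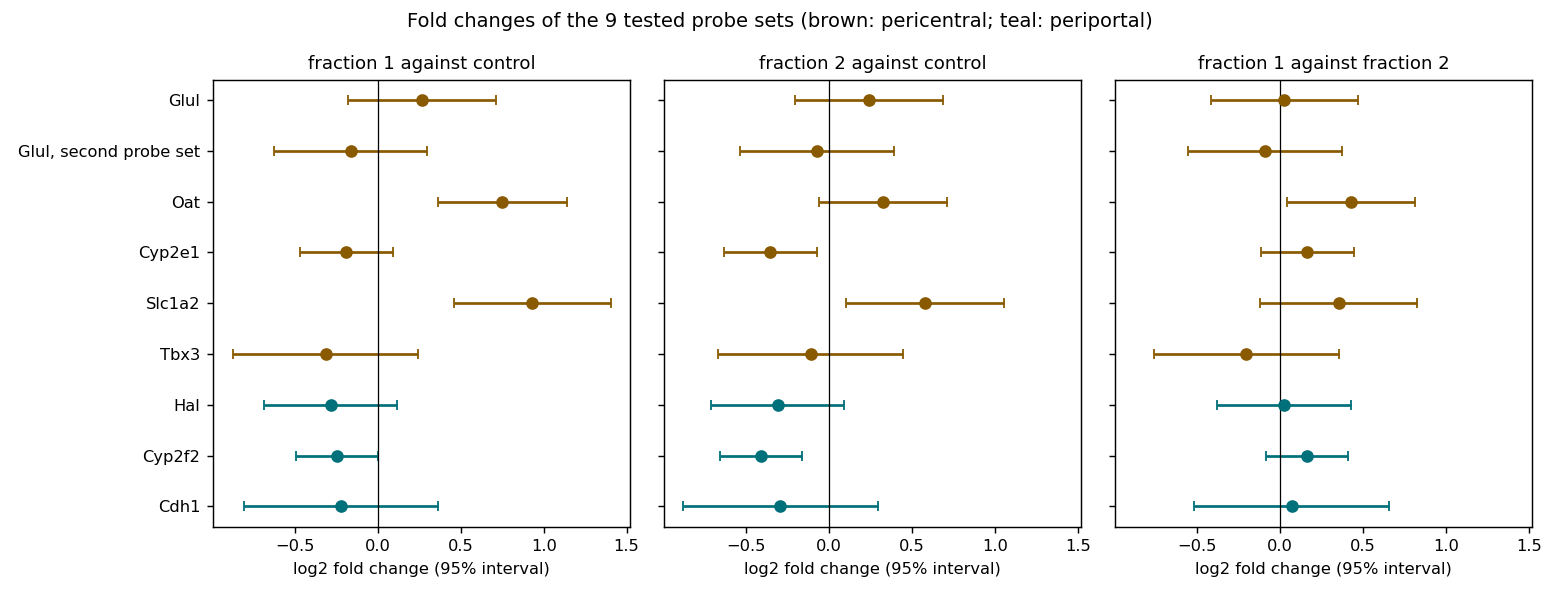
Log2 fold change with its 95% interval for the 9 tested member probe sets in the 3 comparisons; brown marks pericentral and teal periportal genes. After fraction 1 the intervals of Oat (0.36 to 1.14) and Slc1a2 (0.46 to 1.41) lie above 0, and after fraction 2 that of Slc1a2 (0.10 to 1.05) lies above 0 and those of Cyp2f2 (-0.66 to -0.16) and Cyp2e1 (-0.63 to -0.07) below it.

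With 1 probe set a gene, the 5 pericentral genes had 3 estimates above 0 and 2 below for either fraction against control. Their medians were 0.27 for fraction 1 and 0.24 for fraction 2, with values from -0.31 to 0.93 and from -0.35 to 0.58. Both medians are the brighter Glul probe set: with the mean of a gene's probe sets they were 0.051 and 0.084. For fraction 1 the median was 0.082 without fraction 1 replicate a and 0.45 without replicate b. For fraction 2 it was 0.032 without fraction 2 replicate b and 0.099 without control replicate 2, and 0.48 in scan batch 1. The 3 periportal genes all lay below 0, with medians of -0.25 and -0.31. Over all 9209 genes the medians were -0.031 and -0.052, with 46.3% and 43.1% above 0. Both comparisons share the control arrays. Between the fractions the medians were 0.16 and 0.071, beside 0.021 for all genes. The fit gave 0 calls in either zone in these comparisons.

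Among other genes known for one zone, 1 passed in 1 comparison, the periportal gene Apof after fraction 1. Of 18 tested pericentral genes outside the members 0 passed after either fraction, where 0.738% of all genes did after fraction 1 and 0.119% after fraction 2. After fraction 1, 6 lay above 0 and 12 below, with a median of -0.15; after fraction 2 it was 4 and 14, with a median of -0.17. At an unadjusted p under 0.05, 3 were higher and 5 lower after fraction 1 and 0 and 3 after fraction 2, where 12.9% and 7.23% of all genes reached it. Lect2, a secreted protein and beta-catenin target, read 3803.5 and 4036.1 in control, 2443.5 and 2223.5 after fraction 1, and 2474.6 and 2616.9 after fraction 2. All 4 arrays of the fractions lay below both controls, with estimates of -0.75 ± 0.15 (adjusted p = 0.0825) and -0.62 ± 0.15 (adjusted p = 0.428). The ammonium transporter Rhbg stood at -0.92 ± 0.23 for fraction 1 (adjusted p = 0.145), and Gulo, of vitamin C synthesis, at -0.98 ± 0.28 for fraction 2 (adjusted p = 0.533). Between the fractions 0 of 18 passed with limma, where 0% of genes did, 3 reached an unadjusted p under 0.05, where 7.96% of all genes did, and the median was -0.049. Lgr5, a receptor that strengthens Wnt signals, stood at 0.78 ± 0.30 there (adjusted p = 0.574) and the uptake transporter Slco1b2 at -0.46 ± 0.17 (adjusted p = 0.574).

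Of 21 tested periportal genes outside the members, Apof, an apolipoprotein, fell after fraction 1 and 20 did not pass. Apof read 11116.5 and 10454 in control and 6576.1 and 6310.8 after fraction 1. Its estimate was -0.74 ± 0.12 (adjusted p = 0.0454), which passed in 3 of 17 alternatives (adjusted p from 0.0367 to 0.341). The call was lost whichever array was left out, with scan batch or chip lot as a block, and in batch 1 alone. Only the groups compared, quantile normalization, median centring, no filter and no variance trend lost it too. The list's median was -0.026, with 10 above 0 and 11 below, and at an unadjusted p under 0.05 there were 3 higher and 5 lower (12.9% of all genes in either direction). After fraction 2, 0 of 21 passed, 1 was higher and 7 lower at an unadjusted p under 0.05 (7.23% of all genes in either direction), 4 lay above 0 and 17 below, and the median was -0.19. Apof stood at -0.57 ± 0.12 there (adjusted p = 0.347), and Alb, serum albumin, at -0.42 ± 0.11 (adjusted p = 0.494). Alb is also one of the hepatocyte markers. Some genes of this list are bright, such as Alb and Fbp1, at 23475.4 and 20879.9 on control replicate 1. Of the 100 brightest tested probe sets, 97 lay below 0 after fraction 2. The part of that shift in the counts of this list was not tested.

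Between the fractions 0 of those 21 genes passed, 5 were higher and 0 lower at an unadjusted p under 0.05 (7.96% of all genes in either direction), and their median was 0.13. Pck1, which commits substrate to glucose synthesis, read 6491.4 and 7341.6 after fraction 1, 4548.8 and 4488.6 after fraction 2, and 5660.7 and 6230.8 in control. The controls lay between the fractions. The difference between the fractions was 0.61 ± 0.14 (adjusted p = 0.304). Cyp17a1, a P450 of steroid synthesis, had signals of 176.5 and 262.3 after fraction 1, 128.4 and 122.8 in control, and 21.7 and 82.2 after fraction 2. Both fraction 2 values were below their arrays' 40th percentiles, 92.5 and 95.9, the level used in the filter. Cyp17a1 was tested only through the other groups, so no size of difference is given. It did not pass between the fractions with limma (adjusted p = 0.382). It is 1 of the 5 higher genes between the fractions and of the 7 lower after fraction 2. Both counts lean on the filter to that extent.

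**Figure D4:**
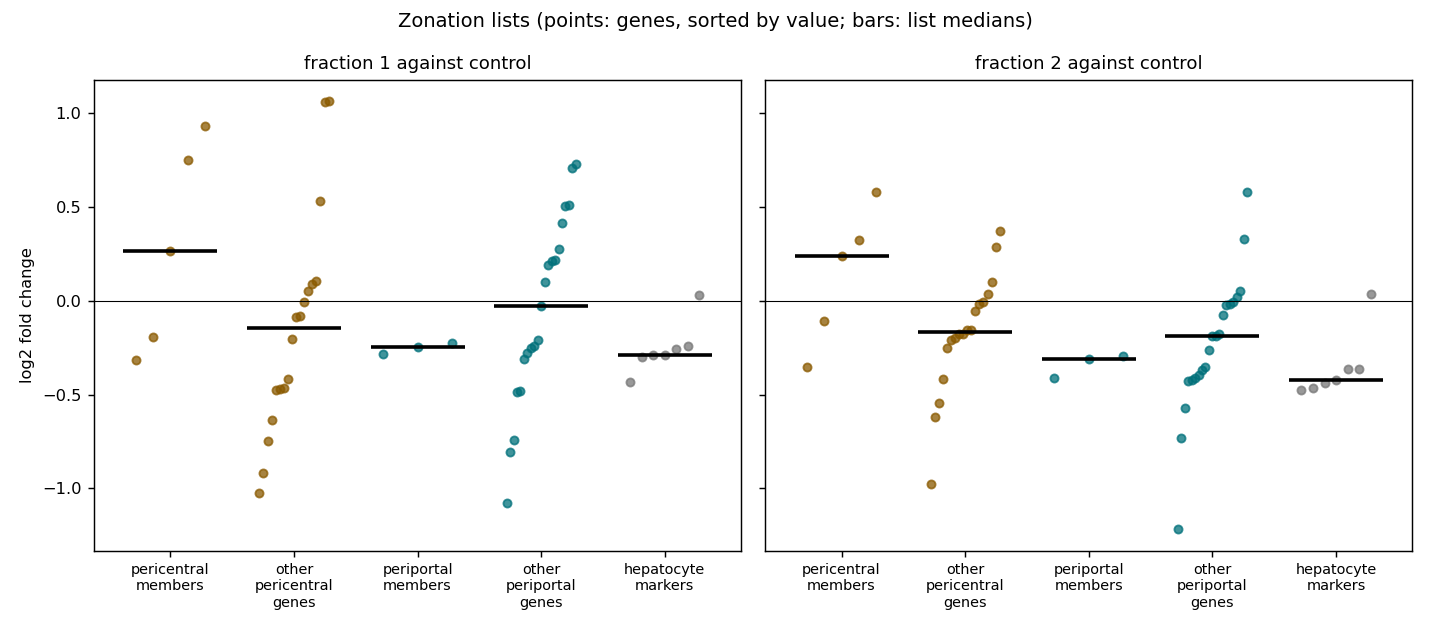
Log2 fold changes of single genes in the member lists, the other zonation lists and the hepatocyte markers, for each fraction against control; points are genes sorted by value and bars are list medians. The pericentral members have medians of 0.27 and 0.24 (0.051 and 0.084 with the mean of a gene's probe sets), the other pericentral genes -0.15 and -0.17, and the hepatocyte markers -0.29 and -0.42.

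In the Wnt and beta-catenin pathway 0 of 37 tested genes passed with limma in any comparison, with medians of -0.082 and -0.092 for fractions 1 and 2 against control and 0.12 between the fractions. At an unadjusted p under 0.05 there were 6, 2 and 5 of them, beside 12.9%, 7.23% and 7.96% of all genes. Ctnnb1, beta-catenin itself, read 3919.3 and 3744.9 in control, 2598.3 and 2281.4 after fraction 1, and 3417.5 and 3288.9 after fraction 2. On this, its brightest probe set, the arrays of each group stood apart from those of the others. Its estimate was -0.65 ± 0.15 for fraction 1 against control (adjusted p = 0.112) and -0.46 ± 0.15 between the fractions (adjusted p = 0.506). Its other tested probe sets stood at -0.78 and -1.29 for fraction 1 against control (adjusted p = 0.491 and 0.784). For fraction 2 against control the brightest stood at -0.19 ± 0.15 (adjusted p = 0.813) and the others at 0.030 and 0.042. Dvl2, which relays the Wnt signal inside the cell, read 30.2 and 34.9 in control, 142 and 152.5 after fraction 1, and 113 and 121.7 after fraction 2. Both controls were below their arrays' 40th percentiles, 93.5 and 116.3, and Dvl2 was tested only through the fraction arrays, where it is high, so no size of difference is given. It did not pass after fraction 1 (adjusted p = 0.0951) or fraction 2 (adjusted p = 0.491). Dvl2 is 1 of the 6 genes counted above after fraction 1 and of the 2 after fraction 2. Those counts lean on the filter to that extent. Notum, a secreted Wnt inhibitor, stood at -0.64 ± 0.19 after fraction 2 (adjusted p = 0.543). Sfrp1, another one, stood at 1.09 ± 0.36 between the fractions (adjusted p = 0.507), with a second probe set at 0.28.

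Among the enzymes and transporters of glutamine, glutamate and histidine, which include 4 members, 0 of 19 tested genes passed in any comparison, and the medians were -0.11, -0.076 and 0.14 in the same order. Of the 19, 8 lay above 0 and 11 below for either fraction against control. Between the fractions 16 lay above 0, where 52.8% of all genes did. At an unadjusted p under 0.05 there were 8, 6 and 3 of the 19, beside 12.9%, 7.23% and 7.96% of all genes. Slc1a2 and Oat had the smallest p after fraction 1. After fraction 2 it was Prodh, which breaks down proline, at -0.75 ± 0.14 (adjusted p = 0.238), and the glutamine transporter Slc38a3 at -0.44 ± 0.12 (adjusted p = 0.495). Between the fractions Amdhd1, of histidine breakdown, stood at -0.76 ± 0.22 (adjusted p = 0.444) and the amino acid transporter Slc38a2 at 0.68 ± 0.24 (adjusted p = 0.538). Of 16 tested regulators of zonation and liver identity 0 passed in any comparison, with medians of -0.17, -0.088 and -0.078 and with 6, 0 and 5 at an unadjusted p under 0.05. The transcription factor Cebpb stood at 1.26 ± 0.24 after fraction 1 (adjusted p = 0.0659), while a second probe set stood at 0.28, and at 0.42 ± 0.24 after fraction 2 (adjusted p = 0.772). Foxa2, another, stood at -0.54 ± 0.31 after fraction 2 (adjusted p = 0.772). Ctnnb1 is in this list, the Wnt list and the next. Of 10 genes of the adherens junction, the contact that Cdh1 builds, 0 passed in any comparison, with medians of -0.18, 0.025 and -0.21 and with 2, 1 and 3 at an unadjusted p under 0.05. Nectin3, a junction protein, stood at -0.91 ± 0.31 after fraction 1 (adjusted p = 0.268), its other probe sets at -0.78 and 0.37, and the catenin Ctnnd1 at 0.66 ± 0.28 after fraction 2 (adjusted p = 0.71).

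For the pericentral and the periportal member with the smallest p, the genes of most similar level over the 6 arrays were found among 9208 others. Slc1a2 was followed most closely by Ddc, with r = 0.983, Kcmf1, with r = 0.983, and Sos1, with r = 0.981. Ddc, aromatic amino acid decarboxylase, read 879 and 764.9 in control and 1637.7 and 1338.9 after fraction 1. Cyp2f2 was followed most closely by Ttr (r = 0.996), Alb (r = 0.995) and Fbp1 (r = 0.993), 2 of them hepatocyte markers. These correlations describe 6 arrays, and the values share each array's scaling.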

How the data were processed

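Total RNA of liver was hybridized to Affymetrix expression arrays, 2 a group, and groups were taken from the sample titles. The authors deposited 1 linear signal intensity per probe set and array; the software behind it is not given in the sources used here. Values were used as deposited. The deposited experiment files, whose unit is other than a measurement, gave scan day and chip lot. Gene symbols came from the platform annotation; 20393 probe sets had 1 symbol, 691 several and 1606 none. Probe sets at or above their array's 40th percentile on at least 2 arrays were tested, after leaving out 64 control probe sets. Values of log2(signal + 16) were fitted with limma 3.58.1 in R 4.3.3 (variance trend, all 6 arrays, two-sided, Benjamini-Hochberg over 14755 probe sets, threshold 0.05). The code was tested on simulated data. The brightest tested probe set stood for a gene.

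The members and lists were chosen with earlier results of these data known. Named genes were all members, the passing genes of each other list (at most 4) or else its 2 of smallest p, and the 3 genes most like 1 member of each zone. With 2 arrays a group precision is low, with a median standard error of 0.25. Alternatives were other scalings, pseudocounts, filters and variance models, scan batch or chip lot as a block, batch 1 alone, only the groups compared, each array left out, a replicate block, the mean of a gene's probe sets, and longer promoter letters. A planned comparison of protein sequences was not run. Figures were drawn with matplotlib 3.10.9.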

Additional observations from a re-analysis of the deposited data

How the results depend on the processing

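Of 468 refits of the 27 member estimates, 440 kept their direction and their side of the threshold, 2 passed (both Oat, above) and 26 changed sign. The number of member probe sets passing for fraction 1 against control became 1 with scan batch as a block and ran from 0 to 1 over the omitted arrays; it was 0 in every other alternative and comparison. Since no member passed as reported, the sign changes could only be of estimates that did not pass. With batch 1 alone the second Glul probe set stood at 0.11 and 0.27 for fractions 1 and 2 against control. With median centring, which moved the median of all probe sets by 0.12 for fraction 2 against control, it stood at 0.043 for fraction 2 and Tbx3 at 0.0061. Between the fractions Glul stood at -0.059 with median centring, -0.061 with scan batch blocked, -0.082 with chip lot blocked and -0.18 in batch 1. Hal stood at -0.061, -0.036 and -0.12 in the first 3 of these, Cdh1 at -0.014 with median centring, and the second Glul probe set at 0.014 and 0.070 with the blocks. Cyp2e1 and Cyp2f2 stood at -0.0075 and -0.017 after quantile normalization. With an array left out, fraction 1 against control ran from -0.51 to 0.065 for Cdh1 and from -0.44 to 0.11 for the second Glul probe set, and fraction 2 against control from -0.35 to 0.20 for that probe set and from -0.30 to 0.081 for Tbx3. Between the fractions it ran from -0.18 to 0.23 for Glul, -0.17 to 0.22 for Hal and -0.22 to 0.36 for Cdh1. The cause of these shifts was not tested.

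The pericentral median for fraction 1 became 0.051 with the mean of each gene's probe sets and ran from 0.082 to 0.45 with an array left out. For fraction 2 it became 0.48 in batch 1 and ran from 0.032 to 0.28. The periportal median became -0.16 after quantile normalization for fraction 1. For fraction 2 it became -0.19 with median centring and ran from -0.43 to -0.31 with an array left out. Between the fractions it became -0.014 with median centring and 0.19 in batch 1, and ran from 0.042 to 0.21. Over the alternatives the count of all probe sets passing ran from 12 to 149, from 2 to 28 and from 0 to 75 in the 3 comparisons, against 105, 16 and 2. Same-letter deviations of the fractions correlated at r = 0.030 (2 pairs). This cannot decide whether the letters a and b pair the fractions. With 2 arrays a group the deviations of a and b mirror each other, and in fraction 2 the letters also differ in scan batch. With the replicate block 0 members passed. The promoter core followed by A or T occurred in 3 member windows, as the core did, and in 16.9% of all windows.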

Other observations

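Markers of other liver cells were measured beside the zonation genes. Of the stellate cell markers, 0 of 9 tested passed, and their medians were -0.41 after fraction 1 and -0.021 after fraction 2. Reln, a glycoprotein of stellate cells, read 2531.4 and 2963.1 in control and 1467.6 and 1092.1 after fraction 1 (-1.10 ± 0.20, adjusted p = 0.0524). Endothelial markers (0 of 10 passed) had medians of -0.32 and -0.044, and the scavenger receptor Stab2 stood at -0.92 ± 0.19 after fraction 1 (adjusted p = 0.0858). Kupffer cell markers (0 of 12) had medians of -0.18 and -0.047, with Adgre1 at -0.77 ± 0.22 after fraction 1 (adjusted p = 0.183). Marco, another Kupffer marker, was higher, at 135.1 and 137.3 in control and 202.4 and 185.4 after fraction 1. Lymphocyte markers (0 of 6) had medians of 0.046 and -0.041. After fraction 1, 2 stellate markers lay above 0 and 7 below, beside 3 and 7 endothelial, 3 and 9 Kupffer, and 3 and 3 lymphocyte markers. After fraction 2 it was 3 and 6, 5 and 5, 5 and 7, and 2 and 4. The summed signal of the stellate markers ran from 8527.4 to 9584.5 in control, 5647.8 to 6572.2 after fraction 1 and 7271.8 to 8383.5 after fraction 2. Between the fractions 0 of these markers passed, with medians of -0.27, -0.20, -0.17 and -0.024 in the same order. At an unadjusted p under 0.05 after fractions 1 and 2, stellate markers had 2 and 1, endothelial 2 and 0, Kupffer 2 and 0, and lymphocyte 0 and 0. Between the fractions they had 2, 1, 2 and 0. Of all genes, 12.9% reached that p after fraction 1, 7.23% after fraction 2 and 7.96% between the fractions.

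Of the red cell markers 1 was tested: Alas2, of haem synthesis, read 2243.8 and 2609.9 in control, 793 and 723.3 after fraction 1, and 2656.1 and 1502.2 after fraction 2. It fell by 1.66 ± 0.26 after fraction 1 (adjusted p = 0.0385), which passed in 7 of 17 alternatives. The call was lost with scan batch or chip lot as a block and without either control or either fraction 1 array. Quantile normalization, median centring, no filter and no variance trend lost it too. Pancreas markers had uneven signal, and 0 of 5 passed in any comparison. Ins2, an insulin gene, had the lowest value, 23.9 on fraction 1 replicate a, where the 40th percentile was 100.9. On fraction 2 replicate b it read 75, where the 40th percentile was 95.9. At an unadjusted p under 0.05 there was 1 pancreas marker after fraction 1, where 12.9% of all genes reached it. The summed level of the pancreas markers ran from 13590.2 to 21318.8 in control, 9499.9 to 27096.6 after fraction 1 and 15463.2 to 28392.1 after fraction 2. Cela1, an elastase, read 7321.8 and 6032.2 in control, 2676.5 and 5212.9 after fraction 1, and 8164.9 and 4460.3 after fraction 2. Ctrb1, a chymotrypsinogen, ran from 3538.1 on control replicate 2 to 11575.2 on fraction 1 replicate b.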
